A study of Mus musculus with 4 samples.

Results

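The genes described here are the tenascins Tnn, Tnc, Tnr and Tnxb and 6 other genes of the tumor matrix, Postn, Thbs1, Thbs2, Sparc, Fn1 and Spp1. All 10 were found by their symbols among the 47729 genes of the deposited expression table. They were picked by name, but the difference of these genes between the groups was known when the list was drawn, Tnn having one of the largest falls. Their differences between the groups are therefore a description, and no p is given for any of the 10 genes.

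RNA was sequenced from subcutaneous tumors that Lewis lung carcinoma (LLC) cells, a mouse lung tumor line, had formed by day 5 in syngeneic C57BL/6 mice. In the LLC-Chem group the grafted cells carried pEFIN plasmids for murine chemerin (1-157), a form that is active without further cleavage. In the LLC group they were wild type according to the labels, although the study also describes cells with the empty vector. Each group had 2 pools of 3 tumors. The LLC-Chem cells came from clones picked after selection, so a difference between clones and an effect of chemerin cannot be told apart, and the sex of the mice is not given in the sources used here. Unless stated otherwise, the study's mice were 6 to 10 weeks old. Nothing in the sources says whether the same-numbered pools of the groups were handled together.

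Levels are RPM, that is, reads per 1000000 reads counted on genes. Estimates of the library totals, from how finely the values are spaced, ran from 28470000 to 33990000 reads, so that a floor of 3 reads per pool corresponded to 0.088 to 0.105 RPM. This limit covers counting error only. Rarres2, which encodes chemerin, was at 102.2 and 98.2 RPM in LLC, against 105.9 and 105.8 RPM in LLC-Chem (log2 fold change 0.08, limma adjusted p = 0.541), so that this gene alone gives no check of the labels. In a fit of log2(RPM + 0.5) with limma over 13694 genes that averaged 1 RPM or more, 1306 genes (9.54%) were higher and 1848 (13.5%) lower in LLC-Chem at an adjusted p under 0.05. The pseudocount of 0.5 understates the change of weakly expressed genes. With any of the 4 pools left out, 0 genes passed, and the unadjusted p was under 0.05 for 998 to 2359 higher and 1580 to 2823 lower genes. The pools of a group differed far more than counting alone would give (chi-square of 65.7 per gene in LLC, 26.8 in LLC-Chem). For a single gene, permuting 2 pools against 2 gives no p under 0.333.

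Matricellular proteins are secreted into the matrix, where they modulate how cells attach to it, move and receive growth factors rather than giving it mechanical strength. Tenascins are large multimers of repeated domains, with a globe related to fibrinogen at the end of each arm. Tenascin-C and tenascin-W, the products of Tnc and Tnn, are scarce in most adult tissue and are known from wounds and tumor stroma, tenascin-R (Tnr) from the nervous system and tenascin-X (Tnxb) from loose connective tissue, where it binds collagen. The thrombospondins encoded by Thbs1 and Thbs2 are known as inhibitors of angiogenesis, and fibronectin (Fn1) is an adhesive protein that cells assemble into fibrils.

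In GRCm38, Tnn spans 160085029 to 160153580 of chromosome 1 on the minus strand, and Tnr on the same chromosome from 159523769 to 159931729 on the plus strand. The gap between them is 153.3 kb and holds 1 other protein-coding gene, 4930523C07Rik. Tnc is on chromosome 4 (63959785 to 64047015) and Tnxb on chromosome 17 (34670535 to 34719815).

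Tnn had the largest difference of the 9 genes tested. It measured 25.2 and 15.6 RPM in LLC, against 0.650 and 0.850 RPM in LLC-Chem, so that the LLC-Chem pools lay far below both LLC pools. The means were 20.4 ± 6.78 RPM and 0.750 ± 0.141 RPM (SD, n = 2 each), which is 27.2-fold lower in LLC-Chem, and the log2 fold change was -4.03 (standard error 0.28). The LLC-Chem values rest on 22 and 28 reads, well above the limit of 3 reads, against 777 and 444 reads in LLC. No exon base of Tnn lies under another gene, and none of its words of 50 bases occurs in another gene's transcripts.

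Tnc, its relative in the tumor stroma, did not share this pattern. Its levels were 260.8 and 104.2 RPM in LLC, against 261.5 and 286.8 RPM in LLC-Chem. The first LLC pool was within 1 RPM of the lower LLC-Chem pool, and the second LLC pool stood alone below the other three. The log2 fold change was 0.73 (standard error 0.41), and it was 0.07 without the second LLC pool and 1.39 without the first. Per kb of exon, Tnc was 7.75 and 5.00 times as abundant as Tnn in the LLC pools and 301.2 and 252.7 times in the LLC-Chem pools.

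Tnxb was higher in both LLC-Chem pools. It measured 212.0 and 503.4 RPM in LLC, against 792.6 and 810.8 RPM in LLC-Chem, a pair of LLC-Chem values that lay close together above LLC pools that lay 2.37-fold apart. The log2 fold change was 1.29 (standard error 0.39), and it ranged from 0.67 to 1.92 when 1 pool was left out. Among the 50-base words of its transcripts, 6.41% also occur in another gene, most often in the pseudogene Tnxa. Tnr, the tenascin of glia and neurons, was close to absent, at 0.400 and 0.950 RPM in LLC, against 0.600 and 0.850 RPM in LLC-Chem (12 to 28 reads). It was below the limit for testing, and its groups overlap.

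Postn encodes periostin, a protein that activated fibroblasts secrete. It measured 429.6 and 795.8 RPM in LLC, against 64.5 and 62.0 RPM in LLC-Chem. Both LLC-Chem pools were at about the same low level, 9.68-fold below LLC on the means (612.7 ± 258.9 against 63.3 ± 1.77 RPM, SD, n = 2 each), with a log2 fold change of -3.20 (standard error 0.28). Sparc encodes a protein that binds collagen and calcium. Its levels were 3244.6 and 5314.3 RPM in LLC, against 1999.2 and 1780.3 RPM in LLC-Chem, so that the groups did not overlap (log2 fold change -1.14, standard error 0.29).

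The thrombospondins differed from each other. Thbs1 measured 386.5 and 229.5 RPM in LLC, against 151.0 and 58.8 RPM in LLC-Chem, lower in both LLC-Chem pools, which themselves lay 2.57-fold apart (log2 fold change -1.65, standard error 0.47, and from -2.33 to -0.98 when 1 pool was left out). Thbs2 measured 1023.7 and 1694.9 RPM in LLC, against 1162.3 and 1353.5 RPM in LLC-Chem, where both values fall between the LLC pools. Its log2 fold change of -0.07 (standard error 0.27) ran from -0.43 without the first LLC pool to 0.29 without the second. Per kb, Thbs2 exceeded Thbs1 by 2.30 and 6.40 times in LLC and by 6.68 and 20 times in LLC-Chem.

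Fn1 measured 2925.9 and 4274.2 RPM in LLC, against 6473.6 and 7664.5 RPM in LLC-Chem, higher in both LLC-Chem pools (log2 fold change 0.99, standard error 0.30). Spp1 encodes osteopontin, a secreted phosphoprotein that macrophages and tumor cells make and that binds integrins and CD44. Its levels of 1021.5 and 1241.4 RPM in LLC-Chem fell between the LLC pools at 1704.8 and 855.2 RPM. The log2 fold change of -0.10 (standard error 0.34) turned to 0.40 without the first LLC pool and was -0.60 without the second. Its exons lie under another gene model, Gm42793, over 18.75% of their bases, where counting can drop reads.

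**Figure D1:**
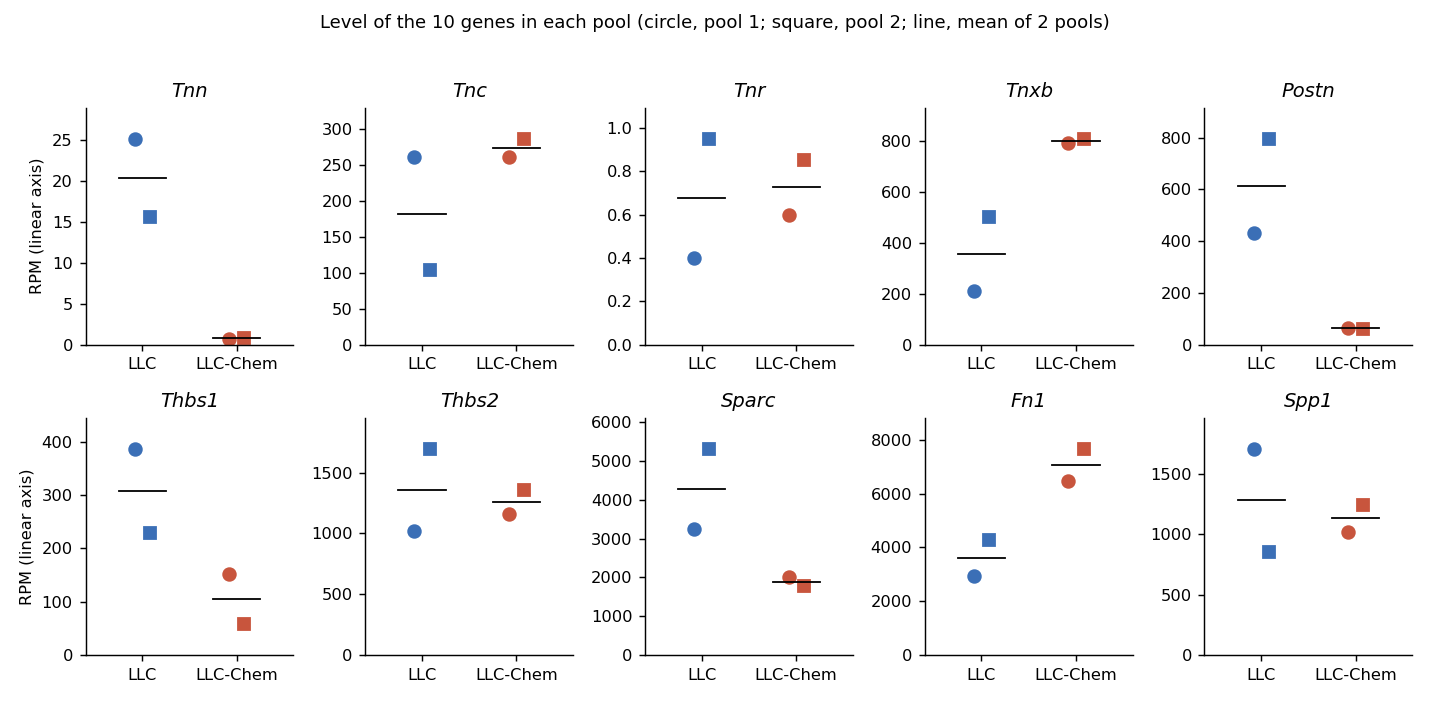
Level of each of the 10 genes in RPM (linear vertical axis from 0), by group, with a circle for pool 1, a square for pool 2 and a line at the mean of the 2 pools. Tnn, Postn, Thbs1 and Sparc lie lower in both LLC-Chem pools, Fn1 and Tnxb lie higher, and the LLC pools of Tnc, Thbs2 and Spp1 span as much as the groups differ.

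Of the 9 genes tested, 3 passed limma's threshold, against 23.0% of all genes tested. These were Tnn, Postn and Sparc, all lower, where 13.5% of all genes passed, and 0 passed higher, where 9.54% did. The other 6 did not pass. In 7 of the 9 the pools of the groups did not overlap, 4 lower and 3 higher, where 72.5% of all genes tested show no overlap (39.3% lower and 33.1% higher). As this comparison was known when the genes were chosen, nothing is read from these counts. The median log2 fold change of the 9 was -0.10, against -0.04 for all genes tested. With 14 other settings, Tnn and Postn passed in 9, Sparc in 6, Fn1 in 2, Tnxb in 1 and Thbs1 in 1, and Tnc, Thbs2 and Spp1 in 0. By edgeR and by DESeq2, 4 of the 9 passed, Fn1 higher and Tnn, Postn and Sparc lower, where edgeR called 23.2% of all genes (11.4% higher, 11.8% lower) and DESeq2 30.3% (13.7% higher, 16.6% lower). With the pool number as a block 3 passed, Tnn, Postn and Thbs1, all lower, where 11.8% of all genes did (4.01% higher, 7.77% lower). With the numbers crossed 4 passed, Tnxb higher and Tnn, Postn and Sparc lower, where 28.5% of all genes did (11.5% higher, 16.9% lower). With any 1 pool left out, none of the 9 passed.

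**Figure D2:**
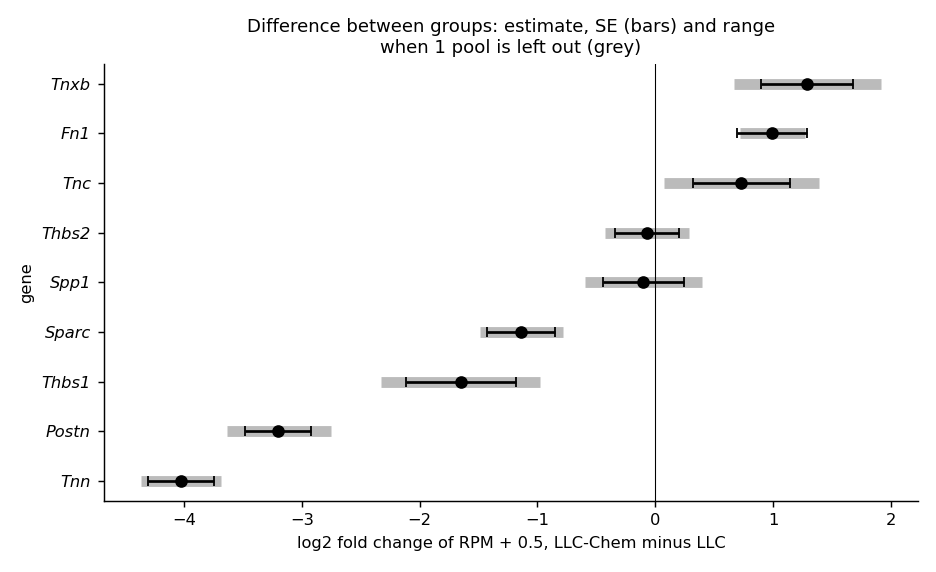
Log2 fold change (LLC-Chem minus LLC, horizontal axis) of the 9 genes tested, with bars for the standard error and grey bands for the range when each pool was left out in turn. Tnn at -4.03 and Postn at -3.20 stand apart from the rest, and the bands of Thbs2 and Spp1 cross 0.

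The 10 genes together took 1.02% and 1.38% of the reads in the LLC pools and 1.19% and 1.33% in the LLC-Chem pools, so their total overlapped between the groups while its make-up differed. To compare levels between genes, RPM was divided by exon length. In LLC the order of the mean RPM per kb was Sparc, Spp1, Fn1, Thbs2, Postn, Thbs1, Tnxb, Tnc, Tnn and Tnr. The pools of Sparc and Spp1 overlapped, as did those of each next pair from Postn down to Tnc. In LLC-Chem the order was Spp1, Fn1, Sparc, Thbs2, Tnxb, Tnc, Thbs1, Postn, Tnn and Tnr, and only Spp1 and Fn1 overlapped.

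As a share of the summed RPM per kb, Sparc made up 34.9% and 51.6% in LLC and 26.4% and 21.4% in LLC-Chem. Fn1 made up 10.2% and 13.5% in LLC and 27.7% and 29.9% in LLC-Chem, so that its share was higher in both LLC-Chem pools. Spp1 made up 42.1% and 19.1% in the LLC pools and stood at 31.0% and 34.4% in LLC-Chem. Postn went from 2.01% and 3.37% to 0.371% and 0.325%. Fn1 exceeded Postn per kb by 5.07 and 4.0 times in LLC and by 74.7 and 92.0 times in LLC-Chem.

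**Figure D3:**
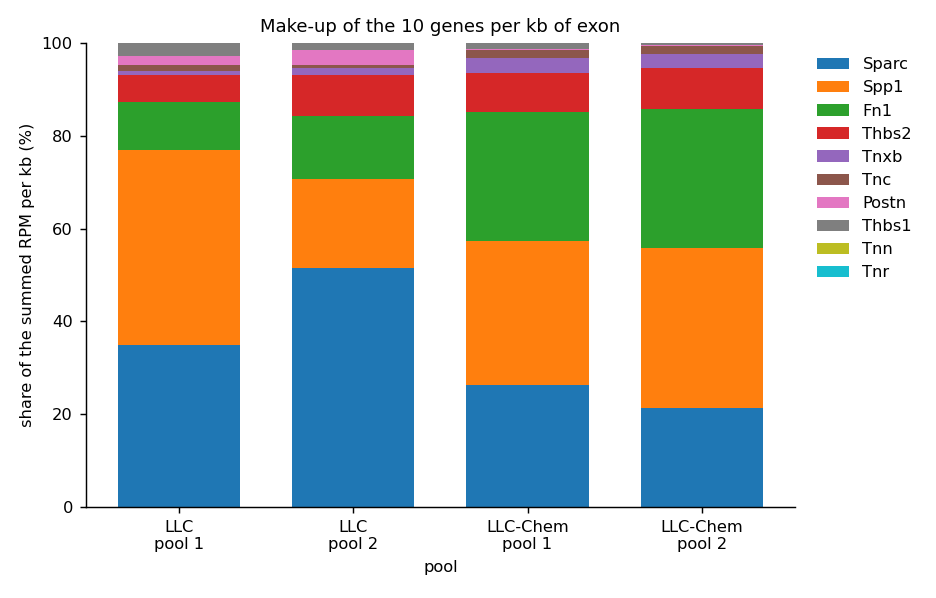
Share of each gene in the summed RPM per kb of exon of the 10 genes (percent, stacked to 100) in each pool. Sparc, Spp1 and Fn1 fill most of every bar, Fn1 goes from 10.2% and 13.5% in LLC to 27.7% and 29.9% in LLC-Chem, and Tnn and Tnr are too small to see.

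The LLC pools differed from each other in a regular way. Tnn, Tnc, Thbs1 and Spp1 were 1.62, 2.50, 1.68 and 1.99 times as high in the first LLC pool as in the second. Tnxb, Postn, Thbs2, Sparc and Fn1 were 2.37, 1.85, 1.66, 1.64 and 1.46 times as high in the second. The summed level of 8 fibroblast markers (Pdgfra, Fap, Thy1, Dcn, Lum, Col1a1, Col1a2 and Col3a1) moved with the latter, at 23624.9 and 44700.0 RPM in the LLC pools, a 1.89-fold difference, and at 32870.9 and 29796.4 RPM in the LLC-Chem pools, between the LLC values. In such bulk samples fewer cells of a type and less RNA per cell cannot be told apart.

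Set against that sum in the same pool, Postn was at 1.82% and 1.78% in LLC, nearly the same in both pools, and at 0.196% and 0.208% in LLC-Chem. Sparc was at 13.7% and 11.9% in LLC and 6.08% and 5.97% in LLC-Chem. Tnxb was at 0.898% and 1.13% against 2.41% and 2.72%, and Fn1 at 12.4% and 9.56% against 19.7% and 25.7%. For these genes the LLC pools were closer together than in RPM, and the groups still did not overlap. The sum was itself 1.89 times as high in the second LLC pool, where these genes were also higher, so dividing by it brings the LLC pools together. Thbs2 overlapped, at 4.33% and 3.79% in LLC and 3.54% and 4.54% in LLC-Chem, and so did Spp1. Tnc, whose groups did not overlap in RPM, overlapped here, at 1.10% and 0.233% in LLC and 0.795% and 0.963% in LLC-Chem. Thbs1 stayed lower in LLC-Chem, at 1.64% and 0.513% in LLC against 0.459% and 0.197%. For Tnn the LLC pools moved further apart (0.107% and 0.0349%), and both LLC-Chem pools remained below them (0.00198% and 0.00285%). These ratios were formed after the values were seen, and the sum is carried mainly by collagens that themselves differ between the pools.

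**Figure D4:**
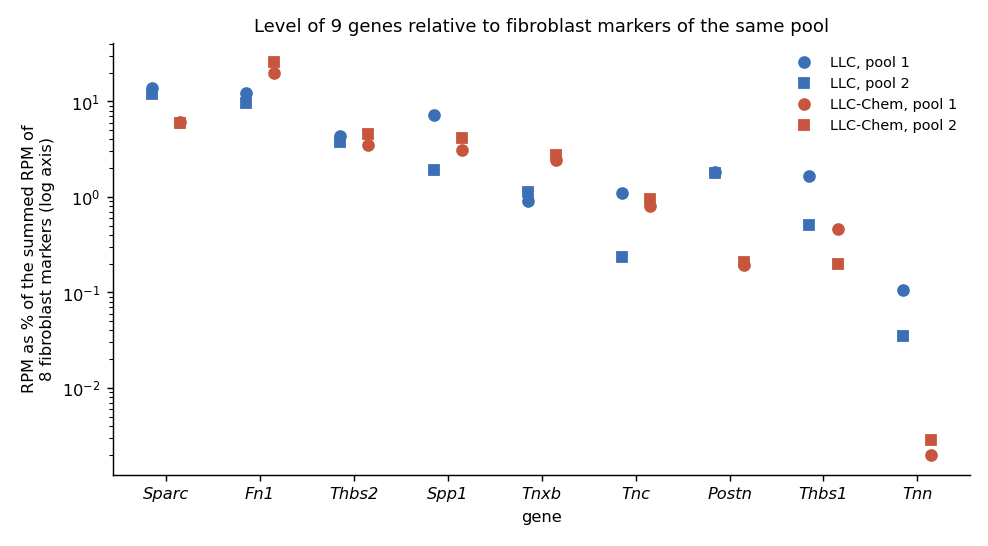
RPM of 9 genes as a percentage of the summed RPM of 8 fibroblast markers in the same pool (log axis), with LLC in blue, LLC-Chem in red, circles for pool 1 and squares for pool 2. The LLC points of Postn fall on each other at 1.82% and 1.78%, while those of Tnn, Tnc, Thbs1 and Spp1 spread out.

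Markers of the cell types that can make these proteins moved unequally between the groups. Of the 8 fibroblast markers, Pdgfra rose (log2 fold change 0.72, limma adjusted p = 0.0450), Col1a1 and Col1a2 fell (-1.51 and -1.46, limma adjusted p = 0.0334 and 0.0383), and 5 did not pass, with Thy1 at -0.91, Fap at -0.26, Col3a1 at 0.49, Dcn at 0.80 and Lum at 1.00. All 6 mural cell markers fell (median log2 fold change -1.76), their sum going from 288.9 and 229.0 to 81.8 and 50.4 RPM. All 6 endothelial markers fell (median -2.09), from a sum of 217.3 and 151.7 RPM to 51.8 and 30.2 RPM. Of the 6 macrophage markers, Csf1r and Itgam fell (limma adjusted p = 0.0490 and 0.0136), and 4 did not pass. The sum of the 6 was 1819.3 and 2223.3 RPM in LLC against 1524.6 and 1004.9 RPM in LLC-Chem. Csf1r lost its call in 11 of the 14 other settings, TMM scaling, edgeR and DESeq2 among them. The symbol Itgam had 2 entries in the deposited expression table, and only the first was used. Across all 45 marker genes, 35 were tested, 18 fell and 2 rose, against 13.5% and 9.54% of all genes tested, and with any 1 pool left out 0 passed. With the replicate block Pdgfra, Col1a1 and Col1a2 did not pass. Pdgfra and the mural marker Cspg4 did not pass by edgeR, nor did Pdgfra without a trend in eBayes. The part of these cell types in the levels of Tnn, Postn, Sparc, Thbs1, Fn1 and Tnxb was not tested.

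Platelets store thrombospondin-1 and Sparc protein. Of 5 platelet genes 4 were tested, and the granule chemokines Pf4 and Ppbp fell (log2 fold changes -1.12 and -3.44, limma adjusted p = 0.0126 and 0.010), while the platelet integrin Itga2b had a log2 fold change of 0.55 and did not pass, Gp1bb was at -0.07, and Gp9 was at 0.10 RPM or below in every pool. The defining osteoblast genes Bglap, Bglap2, Sp7 and Alpl were at 0.250 RPM or below in every pool, and Phex, also on that list, rose from 7.6 and 4.65 to 23.6 and 26.9 RPM (limma adjusted p = 0.0130). Among the glial genes, Mog was at 0.10 RPM or below in every pool, while Mag and Sox10 lay between 0.650 and 1.45 RPM. Mbp, also on that list, was at 54.5 and 45.8 RPM in LLC against 38.5 and 39.4 RPM in LLC-Chem and did not pass (limma adjusted p = 0.0907). The low level of Tnr was therefore not shared by all glial genes. The keratin genes Krt5, Krt14 and Krt1 were at 0.050 RPM or below in every pool, and Krt10, the fourth on that list, was at 2.90 and 4.35 RPM in LLC against 2.05 and 2.10 RPM in LLC-Chem and did not pass (limma adjusted p = 0.109).

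Beyond the 10 genes, 35 other matricellular and matrix glycoprotein genes were listed, of which 28 reached the limit for testing. Among them 8 fell and 2 rose, against 13.5% and 9.54% of all genes tested, and 18 did not pass. The median log2 fold change was -0.46, against -0.04 for all genes. This list and those of receptors and regulators were drawn with earlier results of these data known, so their counts and p-values are a description. Fbln2, which encodes the basement membrane and elastic fiber protein fibulin-2, fell from 312.6 and 419.3 to 89.7 and 86.5 RPM (log2 fold change -2.03, limma adjusted p = 0.00693). Bgn, encoding the proteoglycan biglycan, fell from 607.6 and 601.4 to 157.3 and 146.3 RPM (-1.99, limma adjusted p = 0.00456). In both the groups are far apart compared with the spread within them.

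Sparcl1, the closest relative of Sparc, fell by 1.91 on the log2 scale (limma adjusted p = 0.0226) and Smoc2, another protein with a Sparc-like domain, by 1.76 (limma adjusted p = 0.0130). Ctgf, a matricellular growth factor modulator, fell by 1.74 and Nid2, a basement membrane linker, by 1.69 (limma adjusted p = 0.0320 and 0.0348). Vcan, encoding the large proteoglycan versican, rose by 0.80 on the log2 scale (256.3 and 282.2 RPM in LLC against 460.8 and 479.6 RPM in LLC-Chem, limma adjusted p = 0.0141), and Wisp1, a relative of Ctgf, by 0.60 (limma adjusted p = 0.0331). The further thrombospondins Thbs3 and Thbs4 had log2 fold changes of 0.64 and -0.85 and did not pass (limma adjusted p = 0.104 and 0.130). Wisp1 did not pass with the replicate block, nor did Wisp1 and Nid2 without a trend in eBayes, and with any 1 pool left out 0 of the 28 passed.

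Of 26 genes listed as receptors, 22 were tested, and 14 of these did not pass. Of the rest 3 rose and 5 fell, against 9.54% and 13.5% of all genes tested. Binding to one of the 10 proteins was not checked for each gene on the list. Itgb1, the common beta chain of fibronectin and tenascin receptors, had 863.7 and 856.5 RPM in LLC, against 961.4 and 1006.5 RPM in LLC-Chem (log2 fold change 0.19), and Itga5, its partner in the fibronectin receptor, had a log2 fold change of 0.34. The osteopontin receptor Cd44 was at 0.08 and the thrombospondin receptors Cd47 and Cd36 at -0.12 and -0.77, none of which passed (limma adjusted p = 0.610, 0.426 and 0.131).

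The receptor genes that rose were Sdc2, a cell surface proteoglycan (log2 fold change 0.97, limma adjusted p = 0.0116), Itgb8, a chain of an integrin that activates TGF-beta (0.94, adjusted p = 0.0385) and Egfr, a growth factor receptor that tenascin-C can bind (0.71, adjusted p = 0.0301), the last 2 also by limma. Those that fell were Ptprb, an endothelial phosphatase (-2.04, adjusted p = 0.0141), Itga7, a laminin receptor chain (-1.80, adjusted p = 0.0135), Itga9, whose product binds tenascin-C and osteopontin (-1.01, adjusted p = 0.0484), Itgb7, a leukocyte integrin chain (-0.86, adjusted p = 0.0130) and Stab1, a scavenger receptor that takes up Sparc (-0.79, adjusted p = 0.0264), all from limma. Itgb8 did not pass with the replicate block, nor did Egfr and Stab1 without a trend in eBayes. Itga9 lost its call in 10 of the 14 other settings, TMM scaling and edgeR among them, and with any 1 pool left out 0 of the 22 passed.

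A list of 31 genes known to regulate, process or crosslink these proteins had 31 genes tested, of which 2 rose and 3 fell, against 9.54% and 13.5% of all genes tested, and 26 did not pass. Lox, encoding the lysyl oxidase that crosslinks collagen, fell from 240.6 and 314.6 to 83.7 and 80.4 RPM (log2 fold change -1.74, limma adjusted p = 0.00882). The interleukin receptor genes Il13ra1 and Il4ra, which lie upstream of periostin expression in other tissues, fell by 1.47 and 0.96 on the log2 scale (limma adjusted p = 0.0116 and 0.0321). Smad3 and Twist1, a mediator of TGF-beta and a mesenchymal transcription factor, rose by 0.49 and 0.40 (limma adjusted p = 0.0447 and 0.0475). Tgfb1, Tgfb2 and Tgfb3 themselves were at -0.33, -0.51 and -0.09 and did not pass (limma adjusted p = 0.145, 0.150 and 0.682). Prrx1, a transcription factor linked to tenascin-C, was at 0.41 and did not pass (limma adjusted p = 0.0528). The count of 5 moved to 8 with TMM scaling, to 2 with the replicate block and without a trend in eBayes, where Smad3, Twist1 and Il4ra did not pass, and to 0 with any 1 pool left out.

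**Figure D5:**
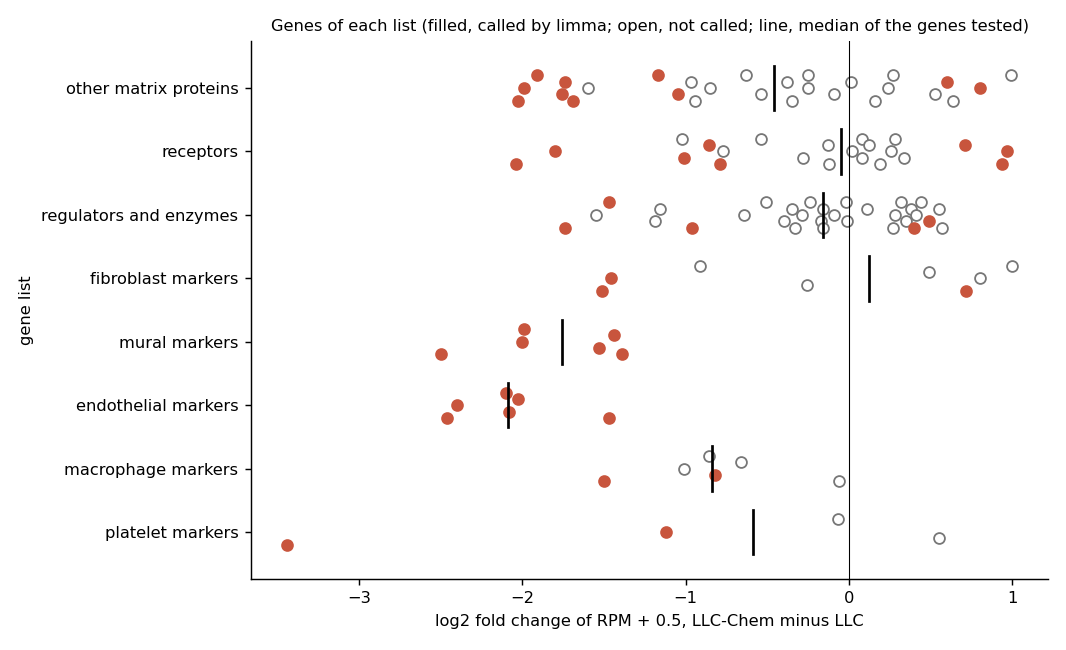
Log2 fold change (LLC-Chem minus LLC, horizontal axis) of each tested gene of 3 lists around the matrix proteins and of 5 marker lists, filled where limma called the gene and open where it did not, with a line at the median of the list. All mural and endothelial markers lie to the left of 0 and are filled, while receptors and regulators lie on both sides.

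The genes nearest to Tnn over the 4 pools, by the distance between log2(RPM + 0.5) profiles centered on their means, were Mmp8 (distance 0.51), Crabp1 (0.57), Cxcl3 (0.71), Disp2 (0.76) and Gzma (0.80). All 5 were high in both LLC pools and at 8.76% of that level or below in LLC-Chem, with the first LLC pool above the second. Mmp8, for example, measured 13.8 and 11.5 RPM in LLC, against 0.550 and 0.400 RPM in LLC-Chem. None of the other 9 matrix genes was among them. Over 4 pools, and with Tnn chosen for its difference, this likeness is a description without a test.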

How the data were processed

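Paired-end reads were aligned by STAR to GRCm38.p4 and counted by HTSeq over Ensembl genes, from which the authors derived the deposited RPM. Tool versions and strand setting are not given in the sources used here. The deposited RPM are whole multiples (within 0.01 steps, at least 99.99% of values above 0) of 0.04997 RPM, summing to about 20000000 steps in every pool. A scaling to that total with rounding up was inferred, and library totals were fitted from steps 3 to 600 on a grid of 1000 reads.

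The group difference was fitted in limma 3.58.1 (R 4.3.3, lmFit, eBayes with trend, two-sided, Benjamini-Hochberg adjustment) on log2(RPM + 0.5) for genes averaging 1 RPM or more, since RPM are not counts, and checked on simulated data. The members and lists were chosen with earlier results of these data known. Named genes are the 10 members, Rarres2, the called genes of each list with the largest changes (up to 6 per direction), markers, the 5 genes nearest to Tnn and, added after their values were seen, Thbs3, Thbs4, Itgb1, Itga5, Cd44, Cd47, Cd36, Prrx1 and the Tgfb genes. Nothing supports a pairing of pools: deviations of same-numbered pools correlated at -0.1405 across genes. Alternatives were pseudocounts of 0.1 and 1, no filter, TMM and median-of-ratios scaling, the replicate block, edgeR 4.0.16 and DESeq2 1.42.0 on recovered reads, eBayes without trend and omission of single pools. The crossed pairing was added after the data were seen. Coordinates and exon lengths are from GENCODE M21 (GRCm38), which holds 98.9% of the identifiers. Python 3.11.15 was used for summaries. Promoter sequences and 1 marker gene are not reported here.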

Additional observations from a re-analysis of the deposited data

How the results depend on the processing

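Without a filter on low values limma called 1 gene higher and 0 lower, whereas unadjusted p-values under 0.05 numbered 3394 and 4003, and it called 0 of the 10 genes, of the other matrix genes, of the receptors, of the regulators and of the markers. Leaving out each pool gave counts from 0 to 0 for every one of these, with 1 residual degree of freedom. Same-numbered pools did not deviate together, and with the replicate block 549 genes were higher and 1064 lower, with 3 of the 10 genes (Tnn, Postn and Thbs1) and 2 regulators called. Crossing the numbers, which their negative correlation prompted, gave 1579 higher and 2320 lower genes, 4 of the 10 genes and 11 regulators. The 5 regulators became 8 with TMM and with median-of-ratios scaling, 11 with DESeq2 and 2 without a trend in eBayes, where receptors fell from 8 to 5. With the filter, edgeR called 1556 genes higher and 1621 lower, and DESeq2 1873 and 2271. The cause of these shifts was not tested. Pseudocounts of 0.1 and 1 moved no count by over 1.5 times.

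The log2 fold changes of Tnn and Postn ran from -4.74 to -3.58 and from -3.64 to -2.75 over 14 alternatives. Among the 10 genes, the called list genes and the markers reported here, values that changed sign with 1 pool left out included Fap (-0.64 to 0.12), Col3a1 (-0.03 to 1.02), Mrc1 (-0.23 to 0.10, with 0.02 between) and Gp1bb (-0.34 to 0.21, with 0.09 between), and the signs of Thbs2 and Spp1 each changed under 2 alternatives. Of 41 called list and marker genes, 27 stayed called under all 9 alternatives other than no filter and a pool left out. With 2 pools a group, their number limits the precision of every value, and for low values such as Tnr (12 to 28 reads) and Tnn in LLC-Chem (22 and 28 reads) depth limits it too.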
